A study of Mus musculus with 3 samples.

Results

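The mRNAs of 10 chromatin protein genes were followed in single-cell counts from 3 mouse medulloblastomas. They are the high mobility group (HMG) genes Hmgb1, Hmgb2, Hmgb3, Hmgn1, Hmgn2 and Hmga1, the histone H2A variant genes H2afz and H2afx, and the H3.3 genes H3f3a and H3f3b. They were taken by name, and all 10 were found among the 19744 genes of the deposited tables. Their mRNAs made up 0.404%, 0.516% and 0.448% of counts in tumours 1, 2 and 3. Each tumour came from a G-Smo mouse on a C57BL/6 background with the genotype hGFAP-Cre/SmoM2, in which Cre driven by the human GFAP promoter turns on a constantly active Smo allele in neural stem cells and their progeny. Every mouse was given palbociclib, which blocks the cell cycle kinases CDK4 and CDK6, by intraperitoneal injection of POx-palbo at 25 mg/kg once a day for 5 days from postnatal day 10, and tumours were taken on postnatal day 16. No untreated tumour is analysed here, so every comparison below is between barcodes of the same treated tumours. Libraries were made by Drop-seq, in which cells are caught in droplets with barcoded beads that bind poly(A) tails, after papain dissociation of one side of the cerebellum or tumour.

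HMGB proteins bend DNA with their HMG boxes, HMGN proteins bind nucleosome cores, and HMGA proteins bind the minor groove of AT-rich DNA. H2A.Z (H2afz) and H3.3 (H3f3a, H3f3b) are placed into chromatin throughout the cell cycle, in contrast to the canonical histones made in S phase. H2AX (H2afx) is the H2A variant that is phosphorylated beside DNA double-strand breaks. Many HMG genes are high in proliferating progenitors and lower after differentiation. In these mice the tumour grows from granule neuron progenitors of the cerebellum.

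Barcodes with at least 200 counts were used, 1060, 148 and 1059 in tumours 1, 2 and 3, or 2267 of 20959 barcodes in all, with median counts of 353.5, 255.5 and 301. They were divided by whether at least 1 count of Neurod1, a transcription factor of differentiating granule neurons, and at least 1 count of Mki67 or Top2a, both genes of proliferating cells, was found. Neither was found in 920 barcodes (39.8% ± 3.78, SD, n = 3 tumours), Neurod1 only in 569 (24.5% ± 2.19), a proliferation gene only in 559 (25.5% ± 1.90) and both in 219 (10.2% ± 2.20). These are classes of detection, not cell types: barcodes with a proliferation gene were deeper in each tumour, with medians of 431.5, 270 and 335 counts without Neurod1 against 311.5, 251.5 and 277 where neither was found. A proliferation gene was also found in 9 of 35 barcodes called myeloid (25.7%, exact 95% interval 12.5 to 43.3) and Neurod1 in 7 of 35, so a detection alone does not mark a tumour cell. All 8 progenitor markers were present in the tables, from Sfrp1 (623, 46 and 744 counts in tumours 1, 2 and 3) to Gli2 (11, 2 and 8), and the list's summed level was 31.3 to 41.7 per 10000 counts by tumour. Granule neuron markers other than Neurod1, which defines the classes, had a summed level of 30.1, 19.1 and 25.6 per 10000 with Neurod1 only, against 12.4, 10.2 and 14.2 with neither. Tumour 2 stood apart: it was the shallowest, mitochondrial genes took 11.1% of its counts against 5.64% and 6.30%, and 1 endothelial or mural barcode of 3172 counts made up 30.6% of its library with both genes. The tumours shared 3 to 8 barcode sequences per pair.

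Counts were summed per tumour and class into 12 libraries and compared with edgeR's quasi-likelihood test, with tumour as a block. Levels are counts of a gene per 10000 counts of its library, differences are on a log2 scale with SE, and adjusted p-values are Benjamini-Hochberg values over all 3978 genes with at least 50 counts. The block takes up differences in level between the 3 tumours, each from a separate mouse. The p-values rest on the scatter left among the 12 libraries after tumour and class detection are fitted. Libraries of the same tumour enter as separate observations, so these p-values are not a test between 3 animals. Intervals on levels are exact 95% Poisson intervals and cover counting error only. In sums over cells, fewer cells of a type and less RNA per cell cannot be told apart.

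Of the 9 genes with enough counts, H2afx and Hmgb2 were higher in barcodes with a proliferation gene, and the other 7 did not pass the test. That is 2 of 9, beside 4.17% of all genes tested that were called in either direction and 2.87% called higher. The median difference of the 9 was 0.33, against -0.01 over all genes tested, and 7 of 9 lay above 0 against 48.4% of all genes. The genes were chosen with earlier results of these data known, so these shares describe the list and are not a test of it. DESeq2 and limma-voom each called only H2afx of the 9. Leaving out tumour 2 kept the same 2 calls.

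**Figure D1:**
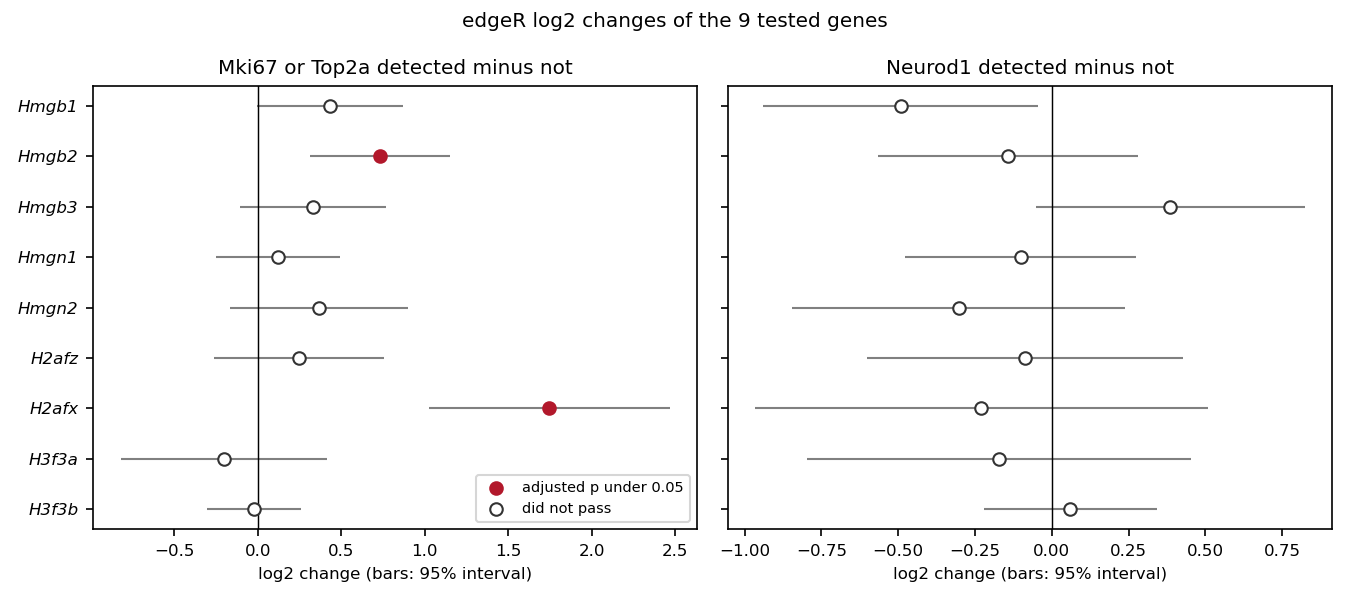
Log2 differences of the 9 tested genes from edgeR, with 95% intervals as bars, for Mki67 or Top2a detected against not (left) and for Neurod1 detected against not (right). H2afx at 1.75 and Hmgb2 at 0.73 are the filled points on the left, and no point on the right is filled.

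H2afx, whose protein is the H2A variant of the DNA damage response, showed the larger difference. In barcodes with neither gene its level was 0.44 per 10000 in tumour 1 (8 counts), 0 in tumour 2 and 0.55 in tumour 3 (7 counts). With a proliferation gene and no Neurod1 it was 2.03 (27 counts), 3.24 (4 counts) and 3.105 (34 counts). The listed levels did not overlap, although the 0 in tumour 2 allows a level of up to 2.04, the level of 3 counts in that library. That reaches the 2.03 of tumour 1. The share of all genes tested without overlap was not counted, so this gap has no background beside it. With Neurod1 only, the levels were 0.76, 0 and 1.00 (8, 0 and 10 counts), and with both they were 1.06, 0 and 2.10 (5, 0 and 13 counts), so tumour 2 told nothing there. The fitted difference was 1.75 (SE 0.37, edgeR adjusted p = 0.000166), higher in 3 of 3 tumours without Neurod1 and in 2 of 3 with it.

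Over all 4 classes H2afx had 48, 4 and 64 counts in tumours 1, 2 and 3, and the call depended on tumour 3. Without tumour 3 the difference was 1.65 with an adjusted p of 0.250, while without tumour 1 it was 1.89 (adjusted p = 0.0468) and without tumour 2 it was 1.69 (adjusted p = 0.000178). With barcodes down to 100 counts the difference fell to 0.75 (adjusted p = 0.0830). With every barcode thinned to 200 counts, so that depth was equal, it was 1.45 (adjusted p = 0.101).

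Hmgb2, a DNA-bending protein made mostly in dividing cells, was the other gene to pass. With neither gene its level was 2.21, 2.04 and 4.80 per 10000 in tumours 1, 2 and 3 (40, 3 and 61 counts), and with a proliferation gene only it was 4.43, 10.5 and 5.84 (59, 13 and 64 counts). Each tumour was higher with the proliferation gene, but the groups overlapped, since tumour 3 with neither gene lay above tumour 1 with a proliferation gene. With Neurod1 only the levels were 2.38, 2.24 and 4.00, and with both genes 5.08, 3.86 and 5.34. The order within tumours was the same there, and again the groups overlapped. The fitted difference was 0.73 (SE 0.21, edgeR adjusted p = 0.0187), a fold of 1.66, higher in 3 of 3 tumours without Neurod1 and in 3 of 3 with it.

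The Hmgb2 call was less stable than its direction. Hmgb2 was higher under each of the 19 alternatives, but 11 of them lost the call, with adjusted p-values from 0.0138 to 0.779. Without tumour 1 the difference was 0.59 (adjusted p = 0.718), without tumour 2 it was 0.63 (adjusted p = 0.0263) and without tumour 3 it was 1.16 (adjusted p = 0.0667). DESeq2 gave an adjusted p of 0.0589 and limma-voom 0.160. Barcodes down to 100 counts gave 0.16 (adjusted p = 0.779).

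**Figure D2:**
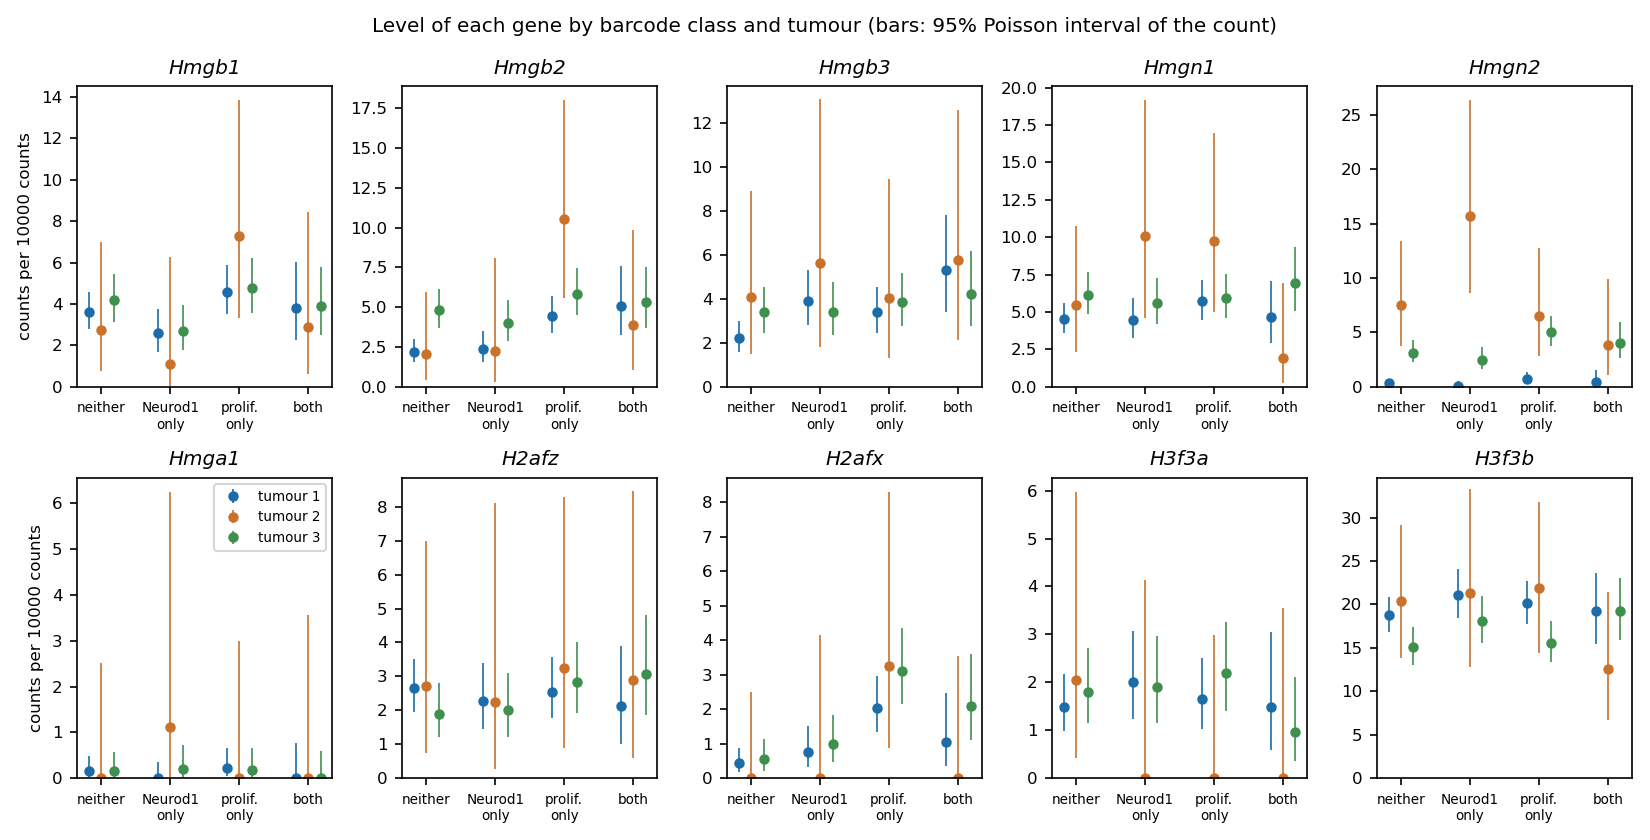
Level of each of the 10 genes in counts per 10000 counts (vertical axis) in the 4 detection classes (horizontal axis) of each tumour (colours), with exact 95% Poisson intervals. H2afx is at 0 to 0.55 with neither gene and at 2.03 to 3.24 with a proliferation gene only, Hmgn2 is under 1 in each class of tumour 1, and the wide bars of tumour 2 come from its few counts.

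The number of proliferation counts was then read at equal depth, after each barcode was thinned to 200 counts. Hmgb2 was at 3.38 ± 1.03 per 10000 in barcodes with 0 proliferation counts, 4.82 ± 0.65 with 1 and 9.96 ± 3.00 with 2 or more (SD, n = 3 tumours, from 1696, 315 and 256 barcodes). Its level went up at each step in each tumour, from 2.60 through 4.07 to 7.21 in tumour 1, from 3.00 through 5.17 to 13.2 in tumour 2 and from 4.55 through 5.21 to 9.52 in tumour 3. H2afx was at 0.61 ± 0.52, 1.33 ± 1.38 and 3.85 ± 1.30 (SD, n = 3). Its last step was the highest in each tumour, although tumour 2 held 0, 0 and 2 counts of H2afx at the 3 steps. H3f3b, in contrast, was at 19.6 ± 2.57, 18.7 ± 1.05 and 18.1 ± 4.91, within its spread. Steps were not tested.

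The share of barcodes with at least 1 count, drawn from 200 counts each, gave the same picture for both genes. Hmgb2 was found in 5.94% ± 2.65 of barcodes with neither gene, 6.11% ± 1.82 with Neurod1 only, 11.02% ± 1.03 with a proliferation gene only and 11.6% ± 1.68 with both (SD, n = 3). Without thinning these shares were 8.73%, 9.14%, 20.02% and 20.9%, which includes the greater depth of the proliferation classes. The classes were made from all counts of a barcode in either case. Thinned shares thus still compare classes whose barcodes differed in depth before thinning. H2afx was found in 0.78% ± 0.68, 1.39% ± 1.25, 4.85% ± 1.41 and 2.20% ± 2.08, and without thinning in 1.16%, 2.00%, 8.24% and 4.95%. In barcodes called myeloid, Hmgb2 was found in 2 of 35 after thinning (5.71%) and H2afx in 0 of 35, which allows a share of up to 8.57%. The exact 95% interval of that Hmgb2 share ran from 0.70% to 19.2%, so all 4 class shares lay within it, and at this number of barcodes none can be set above the background of another cell type.

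The classes were also compared at separate depths. Among barcodes of 500 or more counts, summed over tumours, H2afx was at 2.18 per 10000 with a proliferation gene (95% interval 1.60 to 2.90) and 0.47 without (0.20 to 0.92). At 100 to under 200 counts it was 1.83 (1.17 to 2.73) and 1.75 (1.47 to 2.07). Hmgb2 was at 5.16 and 2.64 at 500 or more counts, and at 7.94 and 7.55 at 100 to under 200 counts. These sums join tumours that differed. At 500 or more counts Hmgb2 was at 4.71 with and 1.76 without a proliferation gene in tumour 1, but at 5.66 and 4.74 in tumour 3. At 100 to under 200 counts it was at 9.11 and 6.69 in tumour 1 and at 8.45 and 8.53 in tumour 3, so only tumour 1 was higher with a proliferation gene there. H2afx at 500 or more counts was at 1.71 and 0.42 in tumour 1 and at 2.998 and 0.59 in tumour 3, a gap in both. At 100 to under 200 counts it was at 2.92 and 1.48 in tumour 1 (8 and 32 counts) and at 1.80 and 2.08 in tumour 3 (16 and 102 counts), in opposite order. Tumour 2 had a single barcode without a proliferation gene at 500 or more counts. The part of depth in the class differences was not tested.

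**Figure D3:**
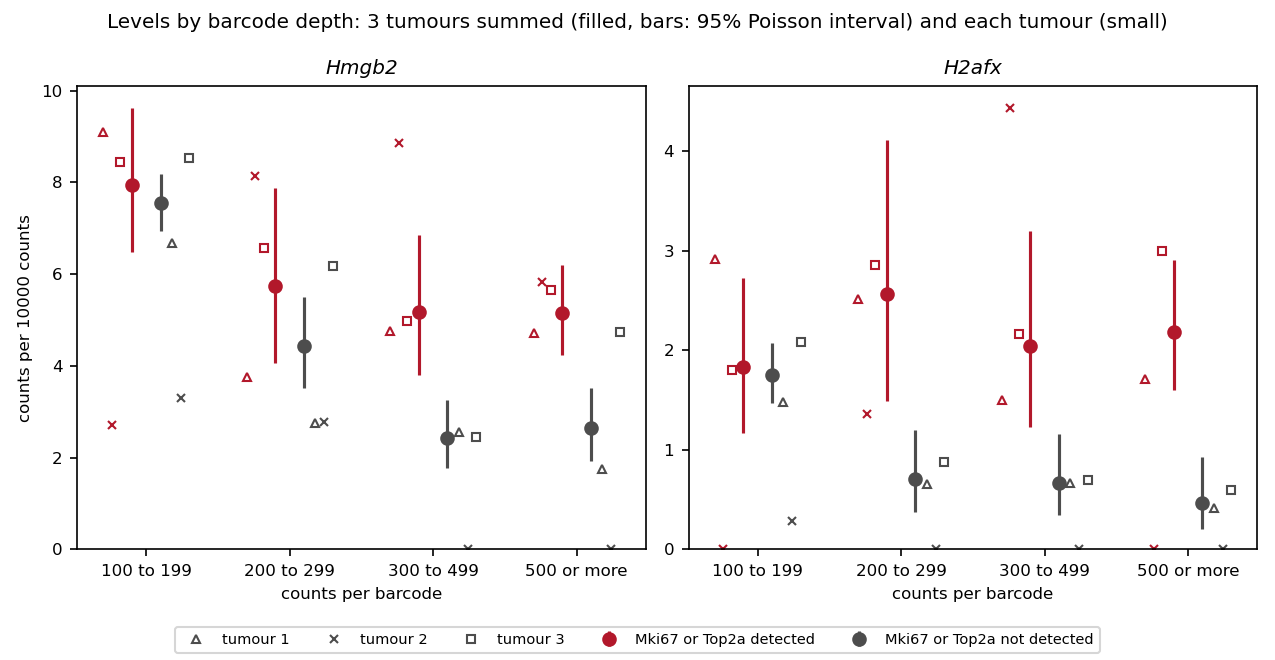
Level of Hmgb2 (left) and H2afx (right) in counts per 10000 counts by counts per barcode, with Mki67 or Top2a detected (red) or not (grey), summed over 3 tumours (filled, with exact 95% Poisson intervals) and in each tumour (small symbols). The filled red and grey points meet at 100 to under 200 counts and lie apart at 300 counts and more, while the Hmgb2 symbols of tumour 3 lie close together at 500 or more.

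The promoter of Hmgb2 is shown because this gene passed the test and because the Mki67 and Top2a classes are defined by cell cycle mRNAs. Hmgb3 and H2afz are set beside it as a second HMGB gene and a histone variant gene that did not pass. Each window runs from 250 bases before the start site to 50 after, from RefSeq on GRCm38.p6, and capitals mark the CCAAT box (CCAAT) and the cell cycle homology region (TTTGAA), each sought on both strands. Hmgb2 lies at chr8:57511593-57511892, Hmgb3 at chrX:71555667-71555966 and H2afz (H2az1 in RefSeq) at chr3:137864237-137864536, all on the plus strand.
Hmgb2: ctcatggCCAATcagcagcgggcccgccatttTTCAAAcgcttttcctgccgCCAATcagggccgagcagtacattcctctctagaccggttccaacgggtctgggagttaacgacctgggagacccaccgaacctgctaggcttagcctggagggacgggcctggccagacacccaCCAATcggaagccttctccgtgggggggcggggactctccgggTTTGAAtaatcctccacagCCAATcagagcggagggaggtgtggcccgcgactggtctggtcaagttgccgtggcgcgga
Hmgb3: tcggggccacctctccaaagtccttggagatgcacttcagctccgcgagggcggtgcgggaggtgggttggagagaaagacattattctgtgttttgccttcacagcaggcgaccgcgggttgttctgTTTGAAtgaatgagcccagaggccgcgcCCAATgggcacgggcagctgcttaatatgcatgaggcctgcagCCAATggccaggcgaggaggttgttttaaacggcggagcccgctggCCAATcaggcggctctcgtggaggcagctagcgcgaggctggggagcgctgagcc
H2afz: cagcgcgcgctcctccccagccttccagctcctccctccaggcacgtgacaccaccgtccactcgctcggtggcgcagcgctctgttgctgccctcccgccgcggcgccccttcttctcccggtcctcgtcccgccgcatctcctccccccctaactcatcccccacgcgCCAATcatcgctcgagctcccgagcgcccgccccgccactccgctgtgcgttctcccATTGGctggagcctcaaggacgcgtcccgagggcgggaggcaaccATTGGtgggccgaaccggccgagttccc
In Hmgb2 a CCAAT box begins 73, another 11 and a cell cycle homology region 30 bases before the start site, and further copies begin 243 and 198 (CCAAT) and 218 bases (homology region, on the minus strand) before it. Hmgb3 holds 3 CCAAT boxes and 1 homology region at 122 bases before its start, and H2afz holds 3 CCAAT boxes and no homology region. Of the 9 genes with a window, 8 hold a CCAAT box and 2 a homology region in at least 1 window. Of all 32851 promoter windows, 37.4% and 17.9% hold them. The 9 genes have 11 windows, so a count of genes is not like a share of windows. None of the 9 holds an E2F site (TTTCCCGC or TTTGGCGC), found in 1.56% of windows. H2afx has no window in the table. These are letter matches, not measured binding sites.

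Hmgb1, the most widely expressed HMGB gene, pointed the same way between the classes without passing. Its level was 3.59, 2.73 and 4.17 per 10000 with neither gene and 4.58, 7.29 and 4.75 with a proliferation gene only, higher in each tumour. With Neurod1 only it was 2.58, 1.12 and 2.70, and with both genes 3.81, 2.89 and 3.88. The difference was 0.43 (SE 0.22, edgeR adjusted p = 0.413), positive in 3 of 3 tumours in each pair of classes. However, it was -0.19 with barcodes down to 100 counts and -4.816e-05 after thinning. At equal depth Hmgb1 was at 4.21 ± 0.55, 5.70 ± 2.72 and 2.84 ± 2.56 per 10000 with 0, 1 and 2 or more proliferation counts (SD, n = 3 tumours). The last step was thus the lowest in the mean, unlike in Hmgb2 and H2afx. In addition, the tables list 11 annotated Hmgb1 copies with 444 counts beside 1605 for Hmgb1, or 21.7% of both together, so reads may be split among them.

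Hmgb3, the third HMGB gene, was at 2.21, 4.09 and 3.38 per 10000 with neither gene, 3.91, 5.61 and 3.40 with Neurod1 only, 3.38, 4.05 and 3.84 with a proliferation gene only and 5.29, 5.78 and 4.21 with both. It was highest with both genes in each tumour. The proliferation difference was 0.33 (SE 0.22, edgeR adjusted p = 0.624).

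The HMGN genes, whose proteins loosen compact chromatin, did not pass either. Hmgn1 was at 4.53, 5.45 and 6.14 per 10000 with neither gene and 5.71, 9.72 and 5.94 with a proliferation gene only, and the difference was 0.12 (SE 0.19, adjusted p = 0.894). Hmgn2 gave 0.37 (SE 0.27, adjusted p = 0.683) on top of a gap between tumours described below. Hmga1, an architectural factor of stem cells and tumours, had 6, 1 and 6 counts in tumours 1, 2 and 3, too few to be tested. It was listed at 0 in 6 of 12 libraries, and in tumour 1 these zeros allow up to 0.29 per 10000 with Neurod1 only and 0.63 with both genes.

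The remaining variant genes showed no called difference. H2afz, which encodes H2A.Z, was at 2.65, 2.73 and 1.89 per 10000 with neither gene and 2.55, 3.24 and 2.83 with a proliferation gene only, and the difference was 0.25 (SE 0.26, 95% interval -0.26 to 0.75, adjusted p = 0.795). H3f3a gave -0.20 (SE 0.32, adjusted p = 0.892) and had only 3 counts in tumour 2. H3f3b was the most precisely measured of the 10, with 920, 89 and 663 counts. Its level was 18.8, 20.4 and 15.1 with neither gene, 21.1, 21.3 and 18.1 with Neurod1 only, 20.1, 21.9 and 15.6 with a proliferation gene only and 19.3, 12.5 and 19.3 with both. The classes overlapped throughout, and the proliferation difference was -0.02 (SE 0.14, edgeR 95% interval -0.30 to 0.26).

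Other chromatin genes give the setting, in lists taken by function. Of 6 tested other histone variant and linker histone genes, 1 was higher with a proliferation gene: Cenpa, the H3 variant of centromeres, at 1.54 (SE 0.38, edgeR adjusted p = 0.00258). DESeq2 called 1 gene of this list and limma-voom 0. Of 57 replication-dependent histone genes in the tables only 2 had 50 counts, and Hist1h1b, a linker histone of dividing cells, was higher at 1.10 (SE 0.28, adjusted p = 0.00368) while Hist1h1e was at 0.59 (SE 0.28, adjusted p = 0.344). As background, most mRNAs of this class end in a stem-loop without a poly(A) tail. Whether that bears on their counts was not tested. Of 14 genes of histone supply, 1 was higher: Nasp, a chaperone of H1, H3 and H4, at 0.70 (SE 0.18, adjusted p = 0.00296). Neither Hist1h1b nor Nasp was called by DESeq2 or limma-voom. At an unadjusted p under 0.05 by edgeR there were 6 of the 14 supply genes, whose median difference was 0.44. The other variant and linker histone genes gave 2 of 6 and the replication-dependent histone genes 2 of 2. This stands beside 12.2% of all genes tested.

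The factors that place or read the variants were not called, and their counts at an unadjusted p under 0.05 stand beside 12.2% of all genes tested. Of the chaperones and exchange factors of H2A.Z 0 of 9 passed edgeR's test, with 1 at an unadjusted p under 0.05, and of the H3.3 chaperones 0 of 5, with 1. Of genes that phosphorylate or read H2AX 0 of 5 passed, with 1 at an unadjusted p under 0.05: Mdc1, which binds the phosphorylated form, at 1.24 (SE 0.41, adjusted p = 0.0529). Of 9 other HMG genes 0 passed, with 2 at an unadjusted p under 0.05. DESeq2 and limma-voom called 0 in each of these 4 lists.

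Genes of other cells moved with the proliferation classes too. Granule neuron markers Celf4, Cntn2 and Rbfox3 were lower in barcodes with a proliferation gene (3 of 5 tested) and astrocyte markers Apoe and Slc4a4 were lower (2 of 4). Of the progenitor markers 0 of 7 were called by edgeR. The 2 at an unadjusted p under 0.05 were also lower, Barhl1 at -0.54 (SE 0.20) and Zic1 at -0.35 (SE 0.16), although the median of the 7 was 0.23. The summed astrocyte list was 15.7 to 71.7 per 10000 with neither gene and 18.6 to 23.0 with a proliferation gene only. Without the 121 barcodes called for another cell type, H2afx was higher by 1.76 (adjusted p = 0.00019) and Hmgb2 by 0.69 (adjusted p = 0.0315).

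Levels in the barcodes of other cell types were measured directly. In 35 barcodes called myeloid, Hmgb2 was at 2.77 per 10000 (95% interval 1.11 to 5.71), H2afx had 0 of 25248 counts, which allows up to 1.19, and H3f3b was at 5.54 (3.03 to 9.30). In 63 barcodes called astrocyte or Bergmann glia, Hmgb2 was at 2.53 (1.31 to 4.42), H2afx at 0.84 (0.23 to 2.16) and H3f3b at 17.9 (14.3 to 22.2). In 417 barcodes with progenitor marker calls the levels were 4.03, 1.32 and 19.1, and in 304 with granule neuron calls 2.90, 1.035 and 20.6. In 9 barcodes called endothelial or mural H3f3b was at 9.71 (5.31 to 16.3). The low myeloid level of H3f3b rested on tumour 3: by tumour it was 11.9, 6.08 and 2.08 (9, 2 and 3 counts), and without tumour 3 it was 10.1 (5.06 to 18.2), an interval that overlaps that of the astrocyte group.

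Between barcodes with and without Neurod1 no difference of the 9 tested genes passed. By edgeR's test 0 of 9 were called, beside 1.33% of all genes tested. At an unadjusted p under 0.05 there was 1 of 9, near the 10.2% of all genes tested. DESeq2 and limma-voom called 0 of the 9. The median difference of the 9 was -0.14, against -0.03 over all genes. The gene with the small p was Hmgb1, at -0.49 (SE 0.23, unadjusted p = 0.031, adjusted p = 0.402). Its level was lower with Neurod1 in 3 of 3 tumours both without and with a proliferation gene: in tumour 1 it went from 3.59 to 2.58, in tumour 2 from 2.73 to 1.12 and in tumour 3 from 4.17 to 2.70 without the proliferation gene. Hmgb3 pointed up, at 0.39 (SE 0.22, adjusted p = 0.583), higher in 3 of 3 tumours in both pairs.

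The other genes lay nearer 0 in the Neurod1 comparison. Hmgn2 was at -0.30 (SE 0.28), H2afx at -0.23 (SE 0.38), H3f3a at -0.17 (SE 0.32), Hmgb2 at -0.14 (SE 0.22), Hmgn1 at -0.10 (SE 0.19), H2afz at -0.09 (SE 0.26) and H3f3b at 0.06 (SE 0.14), with edgeR adjusted p-values of 0.804 or more. In the same comparison Celf4, Cntn2 and Meg3 of the granule neuron list were higher (3 of 5 tested). The astrocyte marker Apoe was lower with Neurod1 (1 of 4 tested) at -0.57 (SE 0.15, edgeR adjusted p = 0.0136). Of the context lists of chromatin genes 0 members passed edgeR's test here, the nearest being the DNA damage kinase Atm at -1.75 (SE 0.52, adjusted p = 0.0531). At an unadjusted p under 0.05, reached by 10.2% of all genes tested, there was 1 gene each in the lists of histone variants, replication-dependent histones and H2AX readers, DESeq2 called 0 and limma-voom called 1 in the H2AX list.

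Whether the proliferation difference depended on Neurod1 was tested as an interaction, which called 0 of 9 genes, beside 0.0503% of all genes tested. At an unadjusted p under 0.05 by edgeR there was 1 of 9, beside 3.12% of all genes tested. The 2 genes called were Apoe (1.33, SE 0.30, adjusted p = 0.0232) and the lysosomal protease gene Ctsd (2.01, SE 0.40, adjusted p = 0.00195), and without barcodes called for another cell type no gene was called. DESeq2 and limma-voom called 0 of the 9. For H2afx the proliferation difference was smaller with Neurod1, at an interaction of -1.69 (SE 0.80, unadjusted p = 0.0341, edgeR adjusted p = 0.999). Summed over tumours, H2afx was 5.48-fold higher with a proliferation gene where Neurod1 was not detected (65 against 15 counts) and 1.79-fold where it was (18 against 18 counts, in libraries of different size). For Hmgb2 the folds were 1.65 and 1.63, and the interaction was -0.13 (SE 0.44, adjusted p = 0.999).

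Of the 10 genes, the counts listed for Hmgn2 differed most between tumours. Over all barcodes tumour 1 had 43 Hmgn2 counts, or 0.37 per 10000 (95% interval 0.27 to 0.50), while tumour 2 had 185, or 7.44 (6.41 to 8.59), and tumour 3 had 750, or 5.66 (5.27 to 6.08). Tumour 1 lay far below the other 2, in each of the 4 classes. Its 19.9-fold range is the second largest of 1056 genes with at least 500 counts, whose median was 1.41-fold. The largest, at 32.6-fold, belonged to the ribosomal pseudogene Rps2-ps13, at 6.56, 0.20 and 0.92, whose parent gene Rps2 went the other way at 0.69, 0.80 and 3.53. Annotated Hmgn2 copies in the tables held 4 counts in all. A difference between the tumours and a difference in how reads of each tumour were aligned or assigned to genes cannot be told apart here, so the low value of tumour 1 may not be a level of Hmgn2 mRNA.

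**Figure D4:**
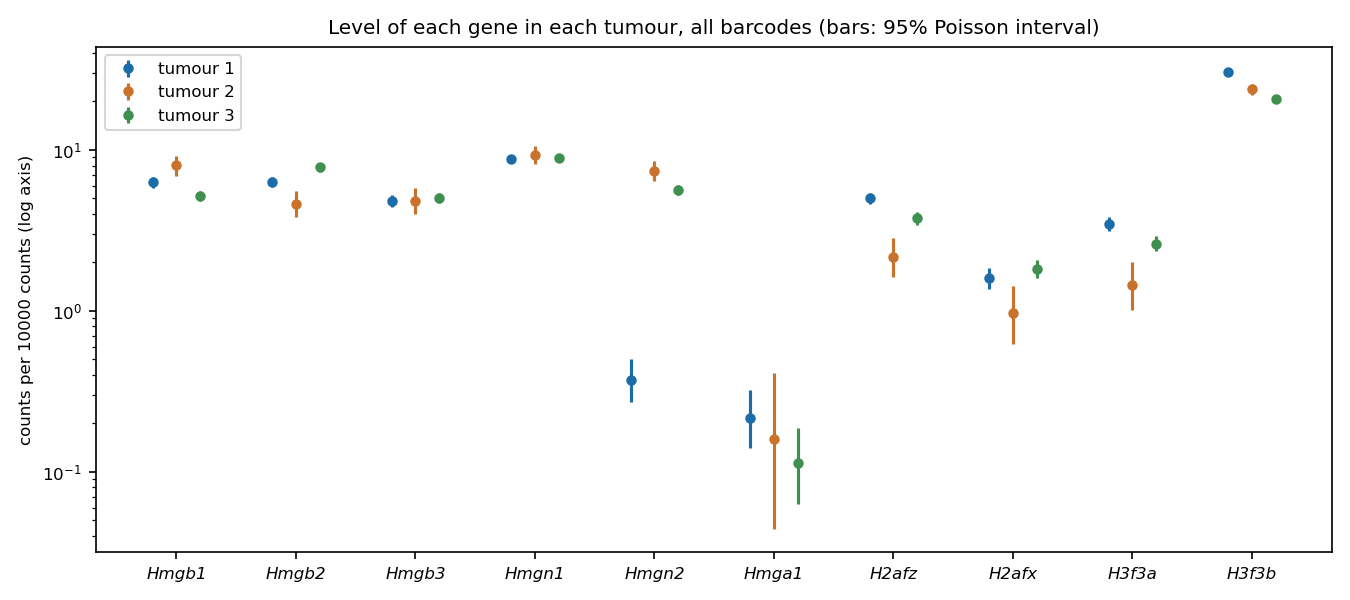
Level of each gene over all barcodes of each tumour, in counts per 10000 counts on a log axis, with exact 95% Poisson intervals. Hmgn2 of tumour 1 at 0.37 lies far below 7.44 and 5.66, whereas Hmgb3 and Hmgn1 meet within 1.06-fold.

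Among the other genes, again over all barcodes, H3f3a ranged 2.38-fold over tumours and H2afz 2.30-fold, with tumour 2 lowest for both. Hmgb2 ranged 1.68-fold, Hmgb1 1.55-fold and H3f3b 1.47-fold. Hmgn1 (1.06-fold) and Hmgb3 (1.05-fold) were among the most even of the 1056 genes, at ranks 1039 and 1043. The barcodes of at least 200 counts were less even. There Hmgn1 was at 4.87, 6.69 and 6.07 per 10000 in tumours 1, 2 and 3, and Hmgb3 at 3.24, 4.75 and 3.64. H2afz was highest in tumour 2 there, at 2.49, 2.81 and 2.36, while H3f3a stayed lowest in tumour 2. Tumour 2 had few counts in these barcodes.

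The mean level over tumours of each of the 10 genes was lower in the deeper barcodes. From barcodes of 50 to under 100 counts to those of 500 or more, the mean over tumours went from 11.8 ± 0.28 to 4.22 ± 0.88 per 10000 for Hmgn1, from 7.99 ± 1.92 to 3.04 ± 0.74 for Hmgb1, from 8.26 ± 2.32 to 4.68 ± 1.26 for Hmgb2 and from 30.0 ± 8.73 to 17.3 ± 1.40 for H3f3b (SD, n = 3). These 4 steps are larger than the SD between tumours at either depth. The mean of Hmgb2 hides tumour 2, which was at 5.59 and 5.48 (66 and 5 counts). The part of depth in them was not tested.

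Genes with a like pattern were sought over the 8 libraries of tumours 1 and 3, in levels centred by tumour, among 987 genes with at least 20 counts on average. These libraries share cells' depth and composition, so Pearson's r is a description. For Hmgb2 the nearest were the ubiquitin ligase G2e3 (0.97), the spindle protein Nusap1 (0.96) and the histone methyltransferase Ezh2 (0.96). For Hmgb1 they were the Cenpa chaperone Hjurp (0.99), the heterochromatin protein Cbx5 (0.97) and the replication factor Atad5 (0.96). For Hmgn2 they were 2810417H13Rik (0.98), the cohesin acetyltransferase Esco2 (0.97) and Hirip3 (0.96), and for Hmgb3 they included Skil (0.96) and Rbmx (0.92). Hmgn1 lay nearest to Cenpc1 (0.99), H2afz to Casp8ap2 (0.98) and H3f3b to Bod1l (0.93). Between the genes themselves the highest r was 0.88, between Hmgb1 and Hmgn2. H2afx, H3f3a and Hmga1 had too few counts to be placed.

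Counts of 2 of the genes in the same barcode were few. After thinning to 200 counts, Hmgb2 and H2afz met in 15 barcodes against 8.998 expected from their shares, above expectation in 3 of 3 tumours, and Hmgb3 and H3f3b met in 56 against 44.0, also in 3 of 3. H2afz and H2afx met in 5 against 2.83, again above in 3 of 3, and Hmgn2 and H2afz in 8 against 4.50, above in 1 of 3. Hmgb1 and Hmgb2 met in 12 against 13.7 and Hmgb1 and Hmgn1 in 11 against 16.9. Expected values come from the shares within each tumour, and no test was made of them. The pairs named are a selection from all pairs of these genes. Others lay below expectation in each tumour, such as Hmgn2 and H3f3b, which met in 19 barcodes against 26.5. Being above in 3 of 3 tumours has no background beside it, since the share expected by chance was not worked out. In tumour 2 it rested on 1 barcode for Hmgb2 and H2afz (0.57 expected) and 1 for H2afz and H2afx (0.095 expected).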

How the data were processed

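The deposited files hold counts of unique molecular identifiers per gene and barcode from Drop-seq of 3 tumours, as the values show, with no normalization by the authors recorded. The submitters' processing notes list the tools STAR and Cell Ranger, with neither version nor role, and the build GRCh38. Of the 19744 symbols, 98.3% matched mouse gene names, so no coordinates of the files were used. No barcode has fewer than 50 genes.

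Barcodes of at least 200 counts were classed by at least 1 count of Neurod1 and of Mki67 or Top2a, and counts were summed per tumour and class (12 libraries of 8917 to 180968 counts). These 3 genes stayed in library sizes but were not tested, since they define the classes. edgeR 4.0.16 (TMM factors, quasi-likelihood test, R 4.3.3) was fitted over all genes with at least 50 counts, with tumour, proliferation and Neurod1 as terms, and with their interaction in a second fit. Tumour is a block because all 4 classes come from each animal. SE is the size of the log2 difference divided by the square root of F, and 95% intervals of differences use the normal approximation. Calls use an adjusted p under 0.05. DESeq2 1.42.0, limma-voom (limma 3.58.1), other filters, depths and detection rules, and leaving out each tumour were alternatives.

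Cell types were called from at least 3 counts of at least 2 markers of a list. Doublets were not removed in the main analysis, and an alternative removed Scrublet's 13 calls (scanpy 1.11.5, expected rate 6%) and 286 barcodes over 10% mitochondrial counts. The fit was tested on simulated data. Named genes were the 10 members, up to 4 called genes of each function list and the 3 genes nearest in pattern to each member, of which some are not reported here. Further genes named because they came nearest to the threshold (Mdc1, Atm), the second tested histone (Hist1h1e) and Barhl1, Zic1, Apoe, Ctsd, Rps2 and its pseudogene were chosen after their values were seen. Members and lists were chosen with earlier results of these data known. Promoter windows and gene names are RefSeq's, with symbols of all 10 members matched.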

Additional observations from a re-analysis of the deposited data

How the results depend on the processing

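The 166 calls of the proliferation comparison became 95 with DESeq2, 75 with limma-voom, 62 with barcodes of at least 500 counts and 34 after thinning to 200 counts, and 34 to 215 when 1 tumour was left out (34 without tumour 1, 215 without tumour 2, 41 without tumour 3). The 53 calls of the Neurod1 comparison became 27, 21, 14 and 18 under the same first 4 settings, 3 to 108 without 1 tumour, 31 with barcodes of at least 100 counts, 33 with Mki67 alone, and 93 without tumour 2 and with the mitochondrial and doublet filter. The 2 interaction calls became 1 with limma-voom, 0 to 2 without 1 tumour, and 0 with DESeq2, barcodes of at least 100 or 500 counts, thinning, Mki67 alone, without barcodes called for another type, or without tumour 2 and with that filter. Without the replicate block, that is without tumour as a term, 88, 12 and 0 genes were called, and Hmgb2 lost its call (adjusted p = 0.273) while H2afx kept it (adjusted p = 0.00292). Thinning, the 500-count limit and leaving out a tumour also lower the number of counts or genes tested. Elsewhere the cause was not tested.

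Hmgb2 also lost its call with no filter on low counts (adjusted p = 0.115), 500 or more counts (0.243), thinning (0.184), Mki67 alone (0.216) and the mitochondrial and doublet filter (0.0572). The sign turned only for genes that did not pass in either setting. In the proliferation comparison Hmgb1 was at -0.19 with 100 counts and -4.816e-05 after thinning, Hmgn1 at -0.12 with 100 counts and -0.064 with Mki67 alone, Hmgn2 at -0.020 with 100 counts and -0.12 to 0.78 without 1 tumour (lowest without tumour 3), H2afz at -0.034 with 100 counts and -0.029 to 0.52 without 1 tumour (lowest without tumour 3), and H3f3b at 0.015 with limma-voom, -0.11 to 0.023 without 1 tumour (highest without tumour 2), 0.19 with 500 counts, 0.025 with the filter and 0.069 with the filter and without tumour 2. In the Neurod1 comparison Hmgn1 was at 0.073 after thinning, Hmgn2 at 0.052 with 500 counts, H2afz at -0.23 to 0.0054 without 1 tumour (highest without tumour 1), 0.074 with the filter and 0.034 also without tumour 2, H2afx at 0.013 with 100 counts, and H3f3b at -0.038 with no filter on low counts, -0.11 to 0.18 without 1 tumour (lowest without tumour 3), -0.0055 without the block, -0.087 with 100 counts and -0.018 after thinning. The Hmgb2 interaction was -0.46 to 0.066 without 1 tumour (highest without tumour 2), and turned to 0.098 with 100 counts, 0.10 without other types, 0.24 with 500 counts, 0.053 with Mki67 alone and 0.12 without tumour 2 and with the filter. The deepest barcode of each class, summed copies, and tumour 2 with the filter were alternatives chosen after seeing the data. Depth limits tumour 2, which gave 46315 counts in the barcodes used, against 466239 and 398419 in tumours 1 and 3.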
